A study of Homo sapiens with 4 samples.

Results

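The 8 genes described here, FOXA1, FOXA2, FOXA3, CEBPA, CEBPB, CEBPD, ONECUT1 and PROX1, encode transcription factors that set up and keep the identity of liver cells. They were chosen by name, with earlier results of these data known. All 8 were found among 19821 protein-coding genes of the RefSeq table. The study mapped γH2AX, a mark of DNA double-strand breaks in which the histone H2AX carries a phosphate at serine 139, in HepG2, an established human liver cancer cell line. The method was CUT&Tag, in which a transposase tethered to an antibody cuts and tags the nearby DNA for sequencing. The 4 samples form 4 groups of 1 sample each: mock-induced cells, titled DMSO, and lipid overload-induced cells, titled PAOA, each with the γH2AX antibody and with IgG. All were unmodified HepG2 cells as far as the labels say, and the sources used here state neither dose nor time of the treatment. The peak lists of the 2 γH2AX libraries were used, and neither IgG sample was analysed here. With 1 library per condition no difference below has a replicate check, and no test was run.

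FOXA1, FOXA2 and FOXA3 are forkhead proteins known as pioneer factors, able to bind sites in closed chromatin and make them accessible to other regulators. CEBPA, CEBPB and CEBPD are leucine zipper proteins of the C/EBP family. CEBPA is known for the metabolic programme of mature hepatocytes, and CEBPB and CEBPD for the response to inflammation and injury. ONECUT1 (HNF6) and PROX1 are homeodomain proteins needed for liver and bile duct development and for hepatocyte specification.

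Of the 8 genes, 3 (FOXA3, CEBPA and CEBPB) had a γH2AX peak within 1 kb of a gene end in lipid overload, and none did in mock. The number of fragments over the peak summit was 29 (95% Poisson interval 19.4 to 41.6) at FOXA3, 18 (10.7 to 28.4) at CEBPA and 12 (6.20 to 21.0) at CEBPB. CEBPD had peaks only at a distance, and FOXA1, FOXA2, ONECUT1 and PROX1 had no peak of either list within 50 kb. Over all protein-coding genes the share with a gene-end peak was 13.4% for the mock list, 43.4% for lipid overload and 31.4% for lipid overload only. The 3 of 8 members therefore stand near the background in lipid overload.

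The peak at CEBPA lies between its start and that of the divergent noncoding gene CEBPA-DT and covers the start of CEBPA-DT, not that of CEBPA. The peak counted for FOXA3 lies over the start of the adjoining gene SYMPK, which encodes symplekin, a scaffold of the machinery that cleaves and polyadenylates RNA. The 250 bases before the start of each gene are given here to place these peaks, with FOXA1 as a member without a nearby peak. They come from RefSeq, build GRCh38.p14, the same coordinates as hg38, and read 5′ to 3′ on the strand of the gene. Capitals mark bases under a lipid-overload peak. CEBPA is on the minus strand (chr19:33302535-33302784), as are SYMPK (chr19:45863148-45863397) and FOXA1 (chr14:37595250-37595499), and FOXA3 is on the plus strand (chr19:45864076-45864325).
CEBPA: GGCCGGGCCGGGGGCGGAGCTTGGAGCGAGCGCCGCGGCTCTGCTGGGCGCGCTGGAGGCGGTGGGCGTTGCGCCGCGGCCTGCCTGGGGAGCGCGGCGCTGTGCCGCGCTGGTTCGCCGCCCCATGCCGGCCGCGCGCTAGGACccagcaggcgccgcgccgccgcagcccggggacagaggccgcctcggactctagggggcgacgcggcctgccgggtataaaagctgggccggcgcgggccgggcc
SYMPK: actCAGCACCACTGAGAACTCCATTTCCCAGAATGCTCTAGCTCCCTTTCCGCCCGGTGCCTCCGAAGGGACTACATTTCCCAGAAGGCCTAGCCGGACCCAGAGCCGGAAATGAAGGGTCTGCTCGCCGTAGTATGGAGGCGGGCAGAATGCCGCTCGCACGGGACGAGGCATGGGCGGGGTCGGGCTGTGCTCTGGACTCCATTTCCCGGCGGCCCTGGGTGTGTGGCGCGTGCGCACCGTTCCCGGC
FOXA3: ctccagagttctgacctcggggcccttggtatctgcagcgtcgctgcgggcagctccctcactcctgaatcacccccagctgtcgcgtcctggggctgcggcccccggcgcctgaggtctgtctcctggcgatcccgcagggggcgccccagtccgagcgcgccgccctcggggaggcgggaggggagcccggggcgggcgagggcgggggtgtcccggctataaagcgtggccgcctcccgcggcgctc
FOXA1: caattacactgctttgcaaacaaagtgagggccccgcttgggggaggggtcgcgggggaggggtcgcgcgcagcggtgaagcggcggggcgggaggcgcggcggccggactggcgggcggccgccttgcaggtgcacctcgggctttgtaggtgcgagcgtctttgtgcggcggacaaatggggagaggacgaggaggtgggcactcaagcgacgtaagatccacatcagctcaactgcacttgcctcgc

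The CEBPA peak covered 145 of the 250 bases, and the SYMPK peak 247 of 250. No base of the FOXA3 or FOXA1 stretch was under a peak. Of 15813 protein-coding genes with a promoter window in RefSeq, 38.2% had a lipid-overload peak over a window, which runs from 250 bases before the start to 50 after it. Windows were found for 5 of the 8 members (FOXA1, FOXA3, CEBPA, CEBPB and ONECUT1), and of these only that of CEBPA touched a peak, which covered more of the CEBPA-DT window.

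These 5 genes have G+C-rich promoter windows whether or not a peak was called near them. The CEBPA window had a G+C content of 80.7% and 50 CpG dinucleotides, against medians of 58.7% and 14 over all 35116 windows. The unmarked windows of FOXA1 (69.3%, 34 CpG) and ONECUT1 (75% G+C, 39 CpG) were also above these medians. FOXA3 had 76.3% and 37 CpG, and the 2 windows of CEBPB had 31 and 43 CpG, the latter at 76.7%. The SYMPK window, with the strongest of the 3 gene-end peaks, was lower, at 65.7% and 30 CpG.

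Short motifs were searched on both strands of these windows. Each member window held the GC box GGGCGG, present in 45.0% of all windows: CEBPA and FOXA1 had 2 matches each, ONECUT1 4, FOXA3 5, and the overlapping windows of CEBPB 6 and 5. The TATA box TATAAA, present in 11.5% of windows, stood at -30 to -25 from the start (the first transcribed base counted as 0) in both CEBPA and FOXA3, and at -29 to -24 from the second start of CEBPB. CCAAT (34.6% of windows) matched in ONECUT1 and CEBPB, and the E-box CACGTG (7.26%) in ONECUT1. The motifs of the families themselves, TGTTTAC for forkhead proteins (3.42% of windows), TTGCNNAA for C/EBP (10.5%) and ATCGAT for ONECUT proteins (0.763%), had no match in any member window, nor did the CRE TGACGTCA (1.85%). The E-box, ONECUT and CRE motifs read the same on both strands. These are matches of letters only.

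**Figure D1:**
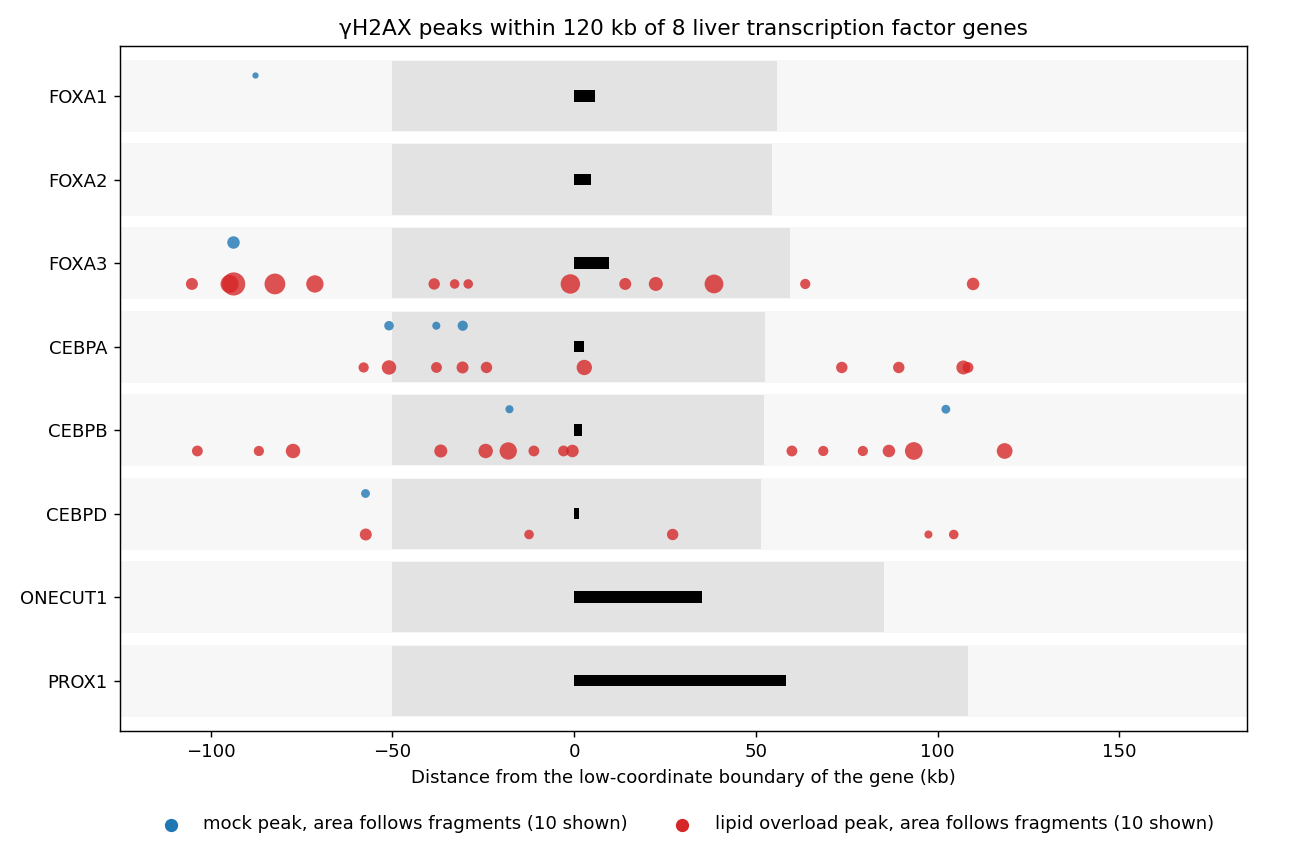
Peaks within 120 kb of each of the 8 genes, plotted by the distance of the summit from the low-coordinate boundary of the gene (kb). Black bars are the genes, dark grey the 50 kb windows, blue points mock and red points lipid-overload peaks with area following the fragment number. FOXA3, CEBPA and CEBPB have a red point beside the gene, CEBPD has 2 in its window, and FOXA2, ONECUT1 and PROX1 have no point at all.

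Among the forkhead genes, FOXA3 stood apart from FOXA1 and FOXA2 by position. FOXA3, on chromosome 19 (45864326 to 45873797, hg38), had no mock peak within 50 kb and 7 lipid-overload peaks. The strongest, at 45863062 to 45863394, ended 932 bp before the start of FOXA3, and its summit lay 1068 bp before that start and 111 bp before the start of SYMPK, which runs the other way. With 29 fragments it ranked 949th of the 27296 lipid-overload peaks by −log10 q. It is the gene-end peak closest to the 1 kb limit, and it is not counted for FOXA3 when the summit must lie within 1 kb.

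The other strong peaks around FOXA3 also belonged to starts of other genes. A peak of 27 fragments (17.8 to 39.3) lay 19 bp from the 5′ end of MYPOP, a Myb-related transcriptional repressor, at 28.8 kb from FOXA3. A peak of 15 fragments (8.40 to 24.7) lay 552 bp from the 5′ end of IRF2BP1, a corepressor that binds IRF2, at 12.9 kb. The peak closest to the 3′ end of FOXA3, 4437 bp beyond it, had 11 fragments (5.49 to 19.7) and touched no gene. The remaining 3 peaks, of 7 to 10 fragments, lay inside SYMPK. No peak was listed inside FOXA3 itself.

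FOXA1 on chromosome 14 (37589552 to 37595249) and FOXA2 on chromosome 20 (22580998 to 22585490) lay in long stretches without lipid-overload peaks. The lipid-overload peak nearest to FOXA1 was 927 kb away and had 5 fragments (1.62 to 11.7). The mock peak nearest to it was closer, at 87.6 kb inside MIPOL1, with 3 fragments (0.619 to 8.77), the lowest number of any mock peak, and no lipid-overload peak overlapped it. Between its flanking lipid-overload peaks FOXA1 sat in a stretch of 2441 kb, and 690 of the 19821 coding genes lay in a longer one. Between mock peaks its stretch was 352 kb, and 9305 coding genes lay in a longer one. For FOXA2 the nearest peaks were 513 kb away in mock, with 4 fragments, and 773 kb away in lipid overload, with 19 (11.4 to 29.7), and the stretch between lipid-overload peaks was 1853 kb long, against 1474 kb in mock.

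Among the C/EBP genes, CEBPA had a peak in the promoter region that it shares with CEBPA-DT. CEBPA lies on chromosome 19, 33299934 to 33302534, on the minus strand. Its peak, at 33302640 to 33302902, had 18 fragments and a summit 165 bp before the start of CEBPA and 122 bp before the start of CEBPA-DT. It ended 106 bp short of the start of CEBPA. In the promoter window of CEBPA-DT 231 bases were under the peak, against 145 in that of CEBPA. It ranked 4441st in the lipid-overload list. No mock peak overlapped it.

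The 3′ flank of CEBPA carried peaks in both conditions. At 33261971 to 33262157 the mock list had 5 fragments (1.62 to 11.7), and the overlapping lipid-overload peak had 9 (4.12 to 17.1). At 33269203 to 33269355 the mock list had 8 fragments (3.45 to 15.8), and lipid overload 11 (5.49 to 19.7). These are 37.8 and 30.6 kb from CEBPA, between it and SLC7A10, an amino acid transporter gene. Another peak, 24.1 kb from CEBPA, was listed in lipid overload only, with 10 fragments (4.80 to 18.4). Just beyond the 50 kb limit, at 50.9 kb, another pair of overlapping peaks had 7 fragments in mock and 16 in lipid overload.

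The ratio of lipid-overload to mock fragments at the shared CEBPA sites was 1.80 (0.542 to 6.84) and 1.38 (0.504 to 3.94). The summits of these pairs lay 48 and 54 bp apart, so the 2 numbers of each ratio were not taken at the same base. By the background levels in the 2 lists, the depth of lipid overload was estimated at 2.62 times that of mock, and both intervals take in this value. No change beyond this estimate of depth was therefore detectable at these sites. The 3 gene-end peaks, scaled by 2.62, come to 11.1 fragments at FOXA3, 6.86 at CEBPA and 4.57 at CEBPB. The mock list has peaks of 3 fragments and more, with a median of 5, over local backgrounds that vary. A gene without a mock peak is one without a called peak, not one without fragments.

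CEBPB lies on chromosome 20, 50190583 to 50192690, inside a run of noncoding genes. Its gene-end peak, at 50190001 to 50190131, had 12 fragments, lay 452 bp before the start and inside the antisense gene CEBPB-AS1, and ranked 19015th of 27296. It was the weakest of the 3 gene-end peaks by −log10 q (2.98, against 21.8 at FOXA3 and 9.77 at CEBPA). With the lipid-overload list trimmed to the length of the mock list, CEBPB had no gene-end peak, while FOXA3 and CEBPA kept theirs. The next peak, the nearest of those outside the 1 kb limit, lay 2829 bp away and had 9 fragments (4.12 to 17.1).

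Stronger peaks around CEBPB lay farther upstream, at ends of other genes. The highest, at 50172184 to 50172783, had 23 fragments (14.6 to 34.5) and covered the 5′ end of the noncoding gene LINC01273, 17.8 kb from CEBPB. It overlapped the mock peak of the window, which had 5 fragments (1.62 to 11.7), but their summits lay 333 bp apart, so these numbers come from different positions. With overlap of 50% of each peak required, this pair was not shared, and 2 of the 3 mock peaks in the windows were. A peak of 16 fragments (9.15 to 26.0) covered an end of LINC01275, and a peak of 13 (6.92 to 22.2) the shared end of PEDS1 and its readthrough gene PEDS1-UBE2V1. The last peak, with 9 fragments, lay 10.96 kb from CEBPB, beyond the 3′ end of LINC01273.

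CEBPD, on chromosome 8 (47736913 to 47738164), had no mock peak and 2 lipid-overload peaks within 50 kb. A peak of 10 fragments (4.80 to 18.4), at 47763685 to 47764165, lay 25.5 kb away, between CEBPD and PRKDC, which encodes the catalytic subunit of the DNA-dependent protein kinase. A peak of 7 fragments (2.81 to 14.4) lay 12.4 kb away inside SPIDR, a gene of homologous recombination. The nearest mock peak, at 57.3 kb with 6 fragments (2.20 to 13.1), was also inside SPIDR and overlapped a lipid-overload peak of 11 (5.49 to 19.7).

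**Figure D2:**
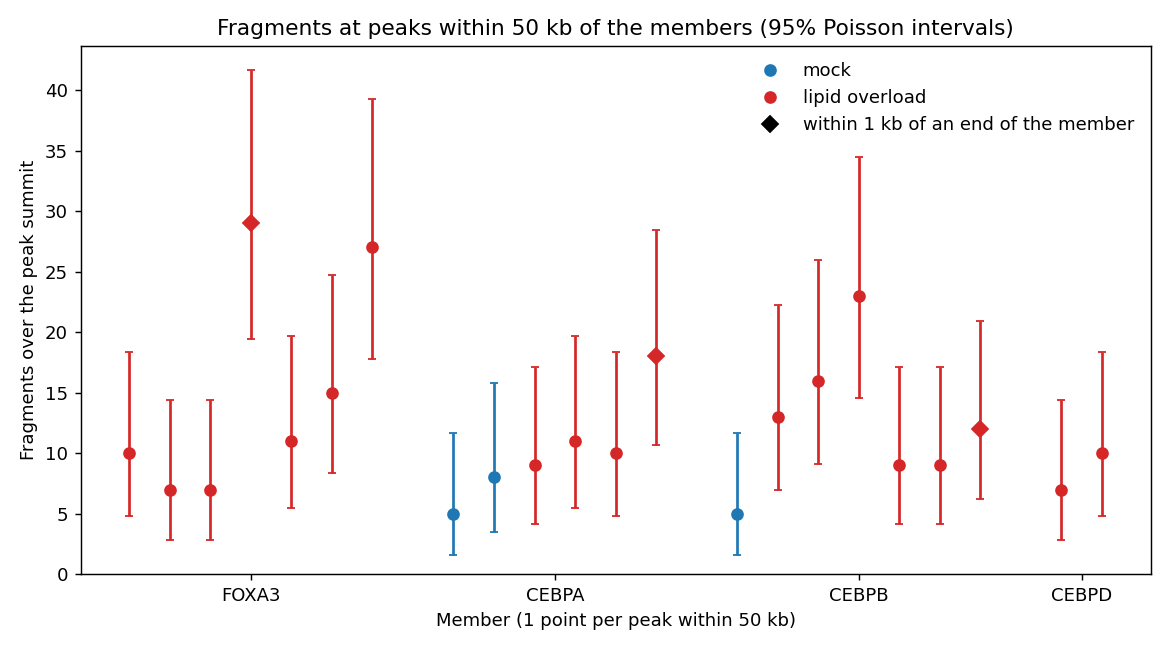
Fragments over the summit (y axis, linear from 0) of each peak within 50 kb of a member, with 95% Poisson intervals that cover counting error only. Blue points are mock and red points lipid overload, ordered along the chromosome within each list, and diamonds mark peaks within 1 kb of an end of the member. The 3 mock points sit at 5 to 8 fragments, and the 19 lipid-overload points run from 7 to 29.

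The homeodomain genes had no peak nearby in either list. ONECUT1 lies on chromosome 15, 52755053 to 52790336. Its nearest mock peak was 619 kb away, with 4 fragments (1.09 to 10.2), and its nearest lipid-overload peak 186 kb away, with 5 (1.62 to 11.7). On the other side of ONECUT1 the nearest peak of lipid overload was 1918 kb away. PROX1 lies on chromosome 1, 213983151 to 214041510. Its nearest mock peak was 312 kb away, with 4 fragments (1.09 to 10.2), and its nearest lipid-overload peak 166 kb away, with 6 (2.20 to 13.1), both on the side of its antisense gene PROX1-AS1. PROX1, 58360 bp long, is the longest of the 8 genes, and no peak of either list was inside it.

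Within 50 kb of the 8 genes there were 3 mock peaks, at 2 genes, and 19 lipid-overload peaks, at 4 genes. All 3 mock peaks overlapped a lipid-overload peak. The share of all 8542 mock peaks that did so was not computed, so this count only describes the windows. Over all coding genes, 52% had a mock peak within 50 kb and 80% a lipid-overload peak, and 17.3% had neither, as did 4 of the 8 members. No member had a peak inside the gene beyond those at its ends: counting peaks inside the gene or at its ends gave 0 members in mock, against 24.2% of coding genes, and 3 in lipid overload, against 58%. The median gene is longer than most members, at 24.5 kb against 1252 to 9472 bp for the FOXA and CEBP genes.

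The 19 lipid-overload peaks had a median of 11 fragments, beside 9 for the whole list. The lipid-overload number was 6.33 times the mock number, beside 3.20 times for the whole lists. With lists of equal length it went from 3 to 7. Of the 19 peaks, 8 lay within 1 kb of a gene boundary, and 7 of these 8 were nearest to a boundary of a gene that is not a member. The same shares over the whole lipid-overload list were not computed, so these counts only describe the windows.

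By distance the members fell into those near a peak and those far from any. In lipid overload CEBPA was nearest, at 0.106 kb, then CEBPB at 0.452 kb, FOXA3 at 0.932 kb and CEBPD at 12.4 kb. PROX1 followed at 166 kb, ONECUT1 at 186 kb, FOXA2 at 773 kb and FOXA1 at 927 kb. The last 4 were all beyond 90% of coding genes, of which 90% had a peak within 152 kb, 75% within 28.2 kb and 50% at 0 kb. Only 248 of the 19821 genes lay farther from a lipid-overload peak than FOXA1.

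In mock the order was different. CEBPB was nearest at 17.7 kb, then CEBPA at 30.6 kb, CEBPD at 57.3 kb, FOXA1 at 87.6 kb, FOXA3 at 93.7 kb, PROX1 at 312 kb, FOXA2 at 513 kb and ONECUT1 at 619 kb. The median coding gene was 44.5 kb from a mock peak. FOXA1 and FOXA2 were farther from a peak in lipid overload than in mock, and the other 6 were nearer.

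**Figure D3:**
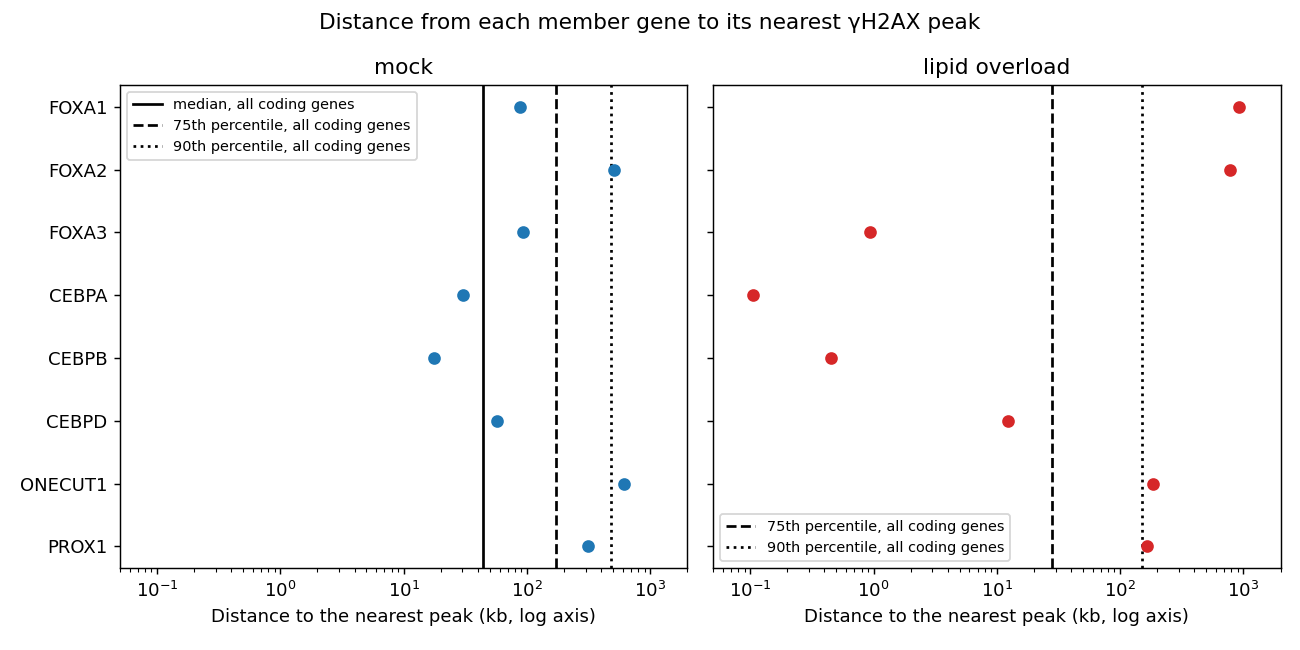
Distance from each of the 8 genes to its nearest peak (kb, log axis), in mock (left) and lipid overload (right). Lines give the median (mock only, since it is 0 in lipid overload), 75th and 90th percentile over 19821 coding genes. In lipid overload 4 members lie left of both lines, at 12.4 kb or less, and 4 lie to the right of the 90th percentile of 152 kb.

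The members without a gene-end peak lie in gene-poor surroundings. FOXA1, FOXA2, CEBPD, ONECUT1 and PROX1 had 3 or 4 other coding genes within 500 kb, while CEBPB had 11, CEBPA 13 and FOXA3 33, with a median of 13 over all coding genes. Within the same 500 kb the first 5 genes had 0 to 3 mock and 0 to 11 lipid-overload peaks, and the other 3 had 11 to 15 and 26 to 56. The 2 sets, of 5 and 3 genes, do not overlap in any of these numbers. They were divided by whether a peak stood at the gene end in lipid overload. The lipid-overload counts within 500 kb take in that same peak, so their separation is partly built in. None of these separations was tested, and the same ranges were not compared over all coding genes with and without a gene-end peak. For the median coding gene there were 4 mock and 16 lipid-overload peaks within 500 kb.

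Many coding genes in such surroundings did have a gene-end peak. Of 2376 coding genes with 3 to 5 neighbours, 35.6% (95% binomial interval 33.6 to 37.5) had one in lipid overload and 64.1% had a peak within 50 kb. Of the 5 members in this class, 0 had a gene-end peak and 1, CEBPD, had a peak within 50 kb. In the classes of CEBPA and CEBPB (11 to 20 neighbours) and of FOXA3 (21 to 40), the gene-end shares were 45.3% and 47.5%. The part of gene density in the contrast between members was not tested, and density was chosen as a measure after the peaks had been seen.

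**Figure D4:**
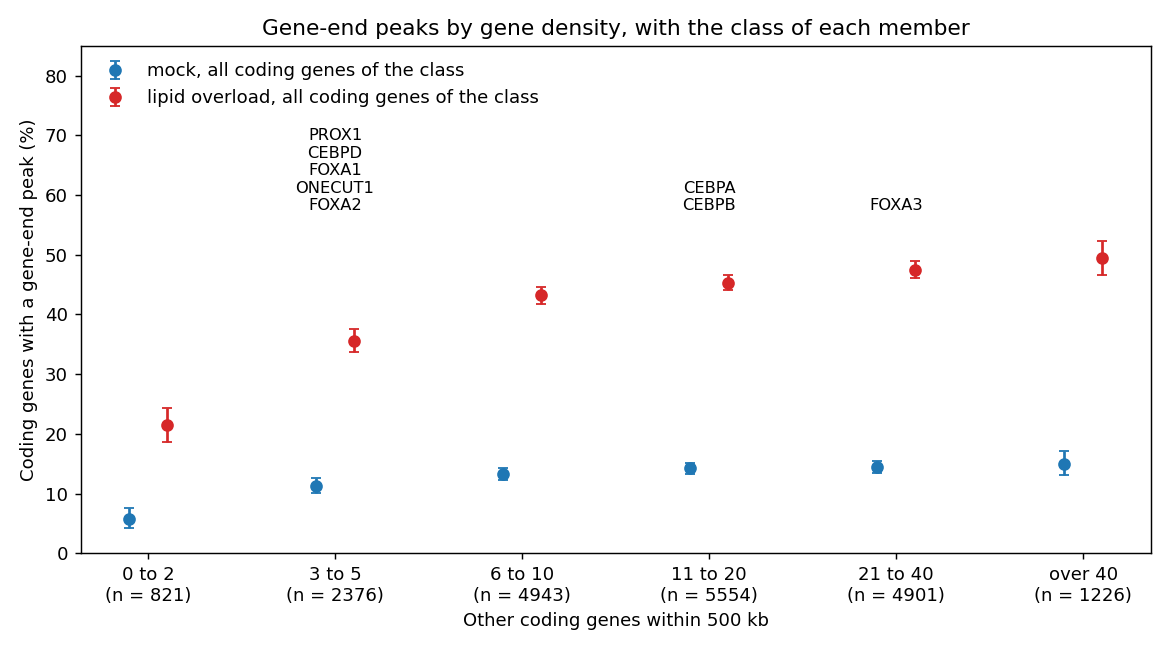
Share of coding genes with a gene-end peak (%, y axis from 0) by the number of other coding genes within 500 kb, in mock (blue) and lipid overload (red), with exact 95% binomial intervals. Names give the class of each member. The lipid-overload share goes from 21.4% with 0 to 2 neighbours to 49.5% with over 40, and the 5 members without a gene-end peak stand in the class with 35.6%.

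Other genes of the liver transcription factor network were listed for comparison. Of 28 such genes, none was marked at a gene end in mock, and 9 (32.1%) were in lipid overload. Over all coding genes these shares were 13.4% and 43.4%. The highest of the 28 were ATF5, a stress-response leucine zipper factor, with 20 fragments (12.2 to 30.9), and TBX3, a T-box factor of liver development, with 19 (11.4 to 29.7). KLF15, a regulator of gluconeogenesis, had 12 (6.20 to 21.0). CEBPG had 10 (4.80 to 18.4), and HNF4G and XBP1 had 8 each (3.45 to 15.8). The start of CEBPG lies on the same side of CEBPA as CEBPA-DT, and its peak was 70.9 kb from CEBPA. A lipid-overload peak inside the gene or at its ends was listed for 58% of all coding genes, and one within 50 kb for 80%. Among the 28 genes such peaks were listed for 18 and 26, beside 3 and 4 of the 8 members. No test of that difference was run.

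Relatives within the families, named after their values were seen, also differed. ONECUT2 had 7 fragments (2.81 to 14.4) at a gene end in lipid overload, while ONECUT3 and CEBPE had no gene-end peak. Hepatocyte genes bound by these factors, such as ALB, APOA1 and PCK1, had no gene-end peak in either list (0 of 18). Over all coding genes the gene-end shares were 13.4% in mock and 43.4% in lipid overload. Of these 18 genes, 2 (SERPINA1 and TF) had a lipid-overload peak inside the gene, and TF also had a mock peak there. Of all coding genes, 58% in lipid overload and 24.2% in mock had a peak inside the gene or at its ends. The 6 hepatocyte markers fixed for a check of the label are among these 18. Of 6 markers of other liver cells 2 had one in mock and 3 in lipid overload. A γH2AX peak is no measure of expression, so the cell type on the label could not be checked with these files.

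Genes with the same pair of fragment numbers at their highest gene-end peak, over the 2 libraries, were numerous. For CEBPA (none in mock, 18 in lipid overload) there were 190, of which CDKN2D, IER5L and ZNF580 were closest in length. For FOXA3 (none and 29) there were 29, led by PCSK4, WDR6 and VWA7, and for CEBPB (none and 12) there were 364, led by GADD45B, SLC35G6 and RNF181.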

How the data were processed

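CUT&Tag for γH2AX was run on 100000 cells per sample with 14 PCR cycles, per the labels' protocols. FastQC, BWA, MACS2 2.1.2 and deepTools with build hg38 are named in the submitters' processing notes, and the sources used here state neither settings nor any control. There is 1 peak list per sample. The deposited columns are position, a score (10 times the −log10 q), a fold enrichment (a linear ratio), −log10 p, −log10 q and a summit offset, all the authors' own values. The lists hold 8542 mock and 27296 lipid-overload peaks, and the lowest −log10 q is 1.30 in both.

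Fragment numbers were solved here from fold and −log10 p under the formulas of MACS2, and 100% of peaks gave a whole number within 0.0001 in log10 p. Solving and counting were tested on simulated data. The relative depth, 2.62, is the ratio of genome backgrounds (0.121 and 0.289 fragments), each divided by the fragment length (136.8 and 124.5 bp) read from the steps of the local background. That length assumes that 2 ends per fragment are counted in 10 kb. The depth ratio is an estimate that assumes backgrounds taken from the γH2AX libraries themselves, and whether IgG served as control is not known. Fragments may be PCR copies of each other, and intervals cover counting error alone.

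Genes came from RefSeq GRCh38.p14. Genes breaking the order of their chromosome by over 1 Mb (679) were set aside. Overlap meant at least 1 bp. Strand and promoter windows came from the RefSeq promoter table. Python 3.11.15 with numpy 2.4.6, pandas 2.3.3 and scipy 1.17.1 was used. Members and lists were chosen with earlier results of these data known. Named were all members, their peaks (up to 4 by −log10 q in each 50 kb window), up to 6 other network genes with the highest gene-end peak, and 3 genes of like pattern per marked member.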

Additional observations from a re-analysis of the deposited data

How the results depend on the processing

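The alternatives changed thresholds, list length, merging, summit placement, gene-end size (3 kb, 500 bp), window size and overlap, for 66 values in all, of which 51 stayed within 1.5 times the main value. No setting gave a member a mock gene-end peak, but only the 3 kb gene ends could have added one. The other settings can only keep or remove such peaks. Their mock gene-end values of 0, counted among the 51, could not move. The gene-end count in lipid overload was 3 or 2: FOXA3 was lost when the summit had to lie within 1 kb or with 500 bp ends, and CEBPB with −log10 q of at least 5, fold of at least 5 or equal list lengths. The 50 kb counts moved more. With −log10 q of at least 5, 0 members and 0 peaks were left in mock and 8 peaks in lipid overload. With fold of at least 5, 1 mock peak at 1 member was left. With equal list lengths, 7 lipid-overload peaks were left. A 20 kb window held 1 mock peak at 1 member and 9 lipid-overload peaks, and a 100 kb window 7 mock peaks at 5 members and 37 lipid-overload peaks. The median distance to the nearest peak, 90.6 kb in mock and 89.1 kb in lipid overload, went to 1132 kb in mock with −log10 q of at least 5, to 595 kb in mock with fold of at least 5, and to 240.1 kb in lipid overload with equal list lengths; these distance alternatives were chosen after seeing the data. Each of these settings leaves fewer peaks or changes the window. No paired analysis was possible because each group has 1 sample. With overlap of 50% of each peak, 2 of the 3 mock peaks in the windows were shared. At these 2 CEBPA sites the ratio intervals take in the depth ratio of 2.62.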
